A study of Triticum turgidum subsp. durum with 4 samples.

Results

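The small RNA of L6 seedlings was compared with that of DBA Aurora seedlings, both grown from seeds of control parents, to describe how the miRNAs of these durum wheat genotypes differed when the parents had not been stressed. The members were all distinct miRNA sequences recorded in either library, 1 row per sequence, which came to 2039 of the 2111 distinct sequences of the series. Of these, 1591 were recorded in both libraries, 277 in L6 only and 171 in DBA Aurora only.

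DBA Aurora is labelled in the study as stress tolerant and L6 (Line 6, a breeding line) as stress sensitive. TCG is the library of DBA Aurora and SCG that of L6 from control parents, while TWH (DBA Aurora) and SWH (L6) came from parents that met water-deficit and heat stress together. They are used here only to set the same genotype comparison beside that of the control parents. In all 4 groups the sampled seedlings were unstressed, and the shoots of 8 seedlings at 12 days were pooled into 1 library. There is no replicate, so every p-value from a pair of libraries compares those libraries and not the genotypes, and seedlings, RNA extraction, library and genotype cannot be told apart. The shoot label could not be checked, because miRNA tables hold no marker transcripts.

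Plant miRNAs are cut from a folded precursor as a duplex of a 5′ arm and a 3′ arm. Usually the guide strand is loaded into an Argonaute protein and silences mRNAs by near-perfect pairing, whereas the star strand is degraded. Conserved families have well-known targets: miR156 silences SPL factors that time the juvenile phase, miR167 silences auxin response factors, miR169 silences NF-YA subunits, miR396 silences growth-regulating factors, and miR398 silences copper proteins including copper/zinc superoxide dismutases. The names used below carry the species of the matched miRBase entry (tae wheat, ata Aegilops tauschii, osa rice, bdi Brachypodium), L and R for added or missing end bases, "ss" for substitutions against that entry, p3 or p5 for an arm that miRBase does not list, and PC for predicted miRNAs with no miRBase match.

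Some of the sequences that differed between SCG and TCG are printed 5′ to 3′ as read, with bases 2 to 8, the seed, in capitals. They were not ranked by the size of the difference, and some lay close to the fold criterion given below. The first set was higher in L6 and holds a PC-named miRNA, miR396 and miR9661 forms, and miR169 strands from both arms. Among them ata-miR169a-3p and ata-miR169b-3p_R-1 share 1 seed, while ata-miR169i-3p and far-MIR169-p3_1ss8AG have unlike seeds.
PC-5p-1206_1154: tTTGCGCAgaagggagaaatc
ata-MIR396d-p3: aAGCCCATggaaaccatgccc
tae-miR9661-5p_1ss14GA: tGAAGTAGagcagagacctca
tae-miR6201: tGACCCTGaggcactcataccg
ata-miR169i-5p_1ss15TC: tAGCCAAGgatgacctgcctg
ata-miR169i-3p: gGCAGTCTccttggctagc
far-MIR169-p3_1ss8AG: gGCAGTCGccttggctagc
ata-miR169a-3p: tGGGCAAGtcaccctggctacc
ata-miR169b-3p_R-1: tGGGCAAGtcatcctggctacc
ata-miR169f-3p_R-1: gGCAAGTCcgtccttggctac

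The second set was lower in L6 and holds both arms of miR398, both arms of miR167b, a miR160 strand, and miR156 forms, of which aly-miR156a-5p_R+4 and gma-miR156a_R+1 share the seed of the most abundant member, bdi-miR156b-5p.
osa-miR398a: tGTGTTCTcaggtcacccctt
osa-miR398a_L+1R-1: tTGTGTTCtcaggtcacccct
mtr-miR398a-5p_1ss7AC: gGAGTGCCactgagaacacaag
ata-miR167b-5p: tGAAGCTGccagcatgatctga
ata-miR167b-3p: aGGTCATGctggagtttcatc
ttu-miR160: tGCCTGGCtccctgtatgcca
gma-miR156a_R+1: tGACAGAAgagagtgagcact
aly-miR156a-5p_R+4: tGACAGAAgagagtgagcacacca

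Normalised counts are the deposited read numbers times 1 factor per library, 1.04 for TCG and 0.833 for SCG. Summed over all distinct sequences, the read numbers came to 994074 in TCG and 1293324 in SCG. With a read number that several sequences share counted 1 time, they came to 974457 and 1266852. Values under 5 reads were recorded for 4 sequences in TCG and 1 in SCG, so a 0 was taken as 5 reads, which is 5.18 normalised counts in TCG and 4.16 in SCG, and the fold change against a 0 is a lower bound. A differentially expressed miRNA (DEM) had an adjusted p under 0.05 in both the chi-squared and Fisher's exact test and an absolute log2 fold change above 1. By this rule 151 sequences were higher in L6, 7.41% of the 2039, and 204 were lower, 10%. These shares are the background for every family below.

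**Figure D1:**
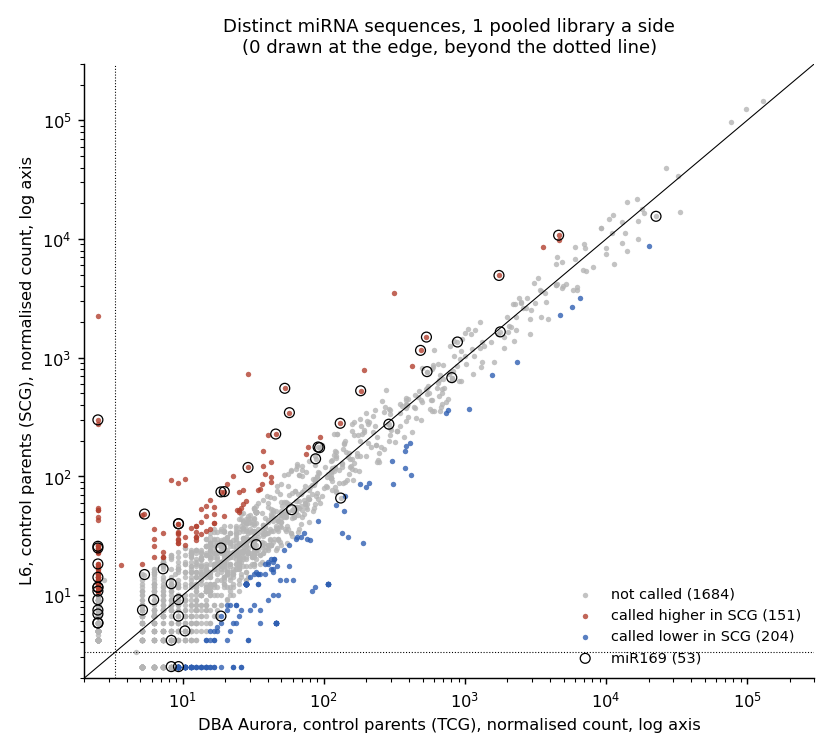
Normalised counts of the 2039 distinct sequences in TCG (x axis) and SCG (y axis), both on log axes, with DEMs in colour and the 53 miR169 sequences circled. Most of the 53 circles lie above the diagonal, and the highest point at 0 in TCG is PC-5p-1206_1154.

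Among the DEMs, 64 of the 151 higher and 69 of the 204 lower ones were at 0 in the other library, and most DEMs were rare. The median of the higher of the 2 counts was 33.3 for the DEMs higher in L6 and 27.9 for those lower. At a count of at least 100 in either library, 28 of 361 sequences were higher (7.76%) and 31 were lower (8.59%), and the highest adjusted p among these 59 was 8.13e-06 by Fisher's exact test. In that abundant set 302 of the 361 sequences differed by a log2 of at most 1, and the median log2 fold change was -0.04.

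The list of DEMs lower in L6 was lengthened by shared counts. The deposited table gives several sequences 1 read number where their names differ only by a trailing number, and 323 of the 2039 sequences share 107 such numbers. The 204 lower sequences rest on 151 separate read numbers and the 151 higher ones on 139. Of sequences whose higher count was under 10, 25 were lower and 0 higher, since a 0 stood for 5.18 normalised counts in TCG and for 4.16 in SCG, and no count under 10 is more than the required fold above 5.18.

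The most extreme difference was that of PC-5p-1206_1154, a PC-named miRNA of the 5′ arm. Neither DBA Aurora library recorded it, while SCG had 2228 normalised counts and SWH had 2473. Against the floor of 5 reads it was at least 430-fold higher in SCG than in TCG. The value was thus high in both L6 libraries. Its precursor lies between annotated genes on chromosome 6B at 686359405 to 686359488 of Svevo.v1, plus strand, and is printed with both arms in capitals.
PC-5p-1206_1154 precursor: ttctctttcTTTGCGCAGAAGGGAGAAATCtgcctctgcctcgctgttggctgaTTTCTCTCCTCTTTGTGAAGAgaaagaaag

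tae-miR6201 had the same pattern, being recorded in neither TCG nor TWH and at 276 in SCG and 286 in SWH, or at least 53.2-fold higher in SCG. Its precursor lies on the same chromosome, 6B, at 687617291 to 687617436, also between genes. Altogether 277 sequences were recorded in SCG but not in TCG, yet 213 of them had a count under 10 and 6 had at least 50. On the other side 171 were recorded in TCG only, of which 127 had a count under 10 and 0 had at least 50. The most abundant DEMs of these were tied at 25.9 in TCG, osa-miR167a-5p_R+1 with 30.3 in TWH and 0 in SWH, and PC-3p-52150_42 with 22.7 in TWH and 0 in SWH.

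ata-MIR396d-p3, a 3′ strand from a miR396 precursor, had 29.0 in TCG, 735 in SCG, 22.7 in TWH and 710 in SWH. It was 25.4-fold higher in SCG than in TCG (log2 4.66, 95% counting interval 4.12 to 5.21), and the values of the genotypes did not overlap. The 5′ strand deposited for the same precursor, osa-miR396e-5p_R-1, had 4392 and 6215 and was not called. The precursor also holds the longer osa-miR396e-5p, which is deposited under another position. Over all 4 libraries with parent treatment as a term, edgeR's quasi-likelihood test called 1 of 1258 sequences higher in L6 (0.0795%), and that was ata-MIR396d-p3 (adjusted p = 0.0468). It called 0 lower (0.00%), with 174 sequences at an unadjusted p under 0.05. The test used TCG and SCG again, by whose values ata-MIR396d-p3 had been picked, so it gives that sequence no separate support. DESeq2, which gave no adjusted p for 707 of the 1258, called 17 higher and 18 lower, and limma 8 and 3. The edgeR test has 1 residual degree of freedom, and without the treatment term it gave 17 higher and 6 lower. Leaving out 1 library, which also needs that term dropped, gave 17 to 59 higher and 5 to 43 lower. The precursor lies between genes on chromosome 2B at 759453121 to 759453264, plus strand, and the 3′ strand is the second capital stretch.
ata-MIR396d-p3 precursor: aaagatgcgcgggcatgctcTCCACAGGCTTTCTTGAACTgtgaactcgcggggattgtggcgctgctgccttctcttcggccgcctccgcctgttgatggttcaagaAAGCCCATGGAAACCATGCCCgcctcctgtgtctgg

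The miR396 family as a whole was not shifted. Of 32 miR396 sequences 3 were higher and 4 lower, and the summed count was 179113 in TCG and 180300 in SCG. The most abundant miRNA of both libraries, osa-miR396e-5p, went from 129681 to 144920 and was not called. Another guide, ata-miR396c-5p, just missed the fold criterion with 33486 in TCG and 16752 in SCG, and the longer sbi-miR396c_R+1 was called lower with 758 and 361.

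The miR169 family stood out by the share of members higher in L6. Of its 53 sequences 23 were higher and 2 lower, 43.4% and 3.77% beside the background of 7.41% and 10%, and the median log2 fold change was 0.91 beside -0.05 over all 2039 sequences. By arm, 15 of 29 3′ strands and 7 of 19 5′ strands were higher. The 23 include 8 sequences at 0 in TCG, and their precursors lie on 9 chromosomes.

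Among miR169 sequences recorded in both libraries and with a count of at least 100, the highest fold change was on a precursor with both strands called. ata-miR169i-5p_1ss15TC had 52.8 in TCG, 553 in SCG, 81.9 in TWH and 469 in SWH, 10.5-fold higher in SCG (log2 3.39, 95% counting interval 2.98 to 3.80). Its partner ata-miR169i-3p had 56.9, 345, 77.1 and 272 in the same order. Both strands were higher in L6 in both seed sources. The precursor lies between genes on chromosome 5B at 478571163 to 478571291, plus strand. The 5′ read differs from this reference precursor by T15C, counted from its own 5′ end, and the reference form is not listed in the table.
ata-miR169i precursor: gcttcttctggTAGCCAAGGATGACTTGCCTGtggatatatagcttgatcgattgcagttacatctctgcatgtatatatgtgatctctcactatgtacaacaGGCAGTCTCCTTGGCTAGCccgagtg

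More abundant miR169 3′ strands were higher as well. ata-miR169f-3p_R-1 had 4609 in TCG, 10772 in SCG, 4103 in TWH and 9018 in SWH (log2 1.22, and 1.14 in SWH vs TWH). ata-MIR169d-p3 had 1742 in TCG and 4936 in SCG but 2888 and 3533 in TWH and SWH. ata-miR169a-3p had 533 in TCG and 1494 in SCG beside 1154 in TWH and 1206 in SWH, so its difference in the second seed source was small (log2 0.06). The related ata-miR169b-3p_R-1, which differs from its genomic region on chromosome 4A by C12T, was at 0 in both DBA Aurora libraries and at 299.7 in SCG and 252 in SWH.

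One miR169 strand went the other way and holds most of the family's reads. bdi-miR169c-3p_L+1_2ss6GA13CT had 22600 in TCG and 15551 in SCG, a log2 of -0.54 that was not called. With it the summed miR169 count was 35434 in TCG and 42133 in SCG, and without it 12834 and 26582. The 5′ strand ata-miR169d-5p_R+1 had 884 and 1358 and was not called. In SWH vs TWH, 20 of the 22 higher miR169 sequences that were recorded there had the same sign and 10 were called higher, but the family's median was lower, 0.34. These 22 were chosen by their SCG vs TCG values, and the same-sign share over all sequences was not computed. Of all 49 miR169 sequences recorded in SWH vs TWH, 12 were higher and 4 lower, where 6.30% and 5.09% of all sequences were.

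**Figure D2:**
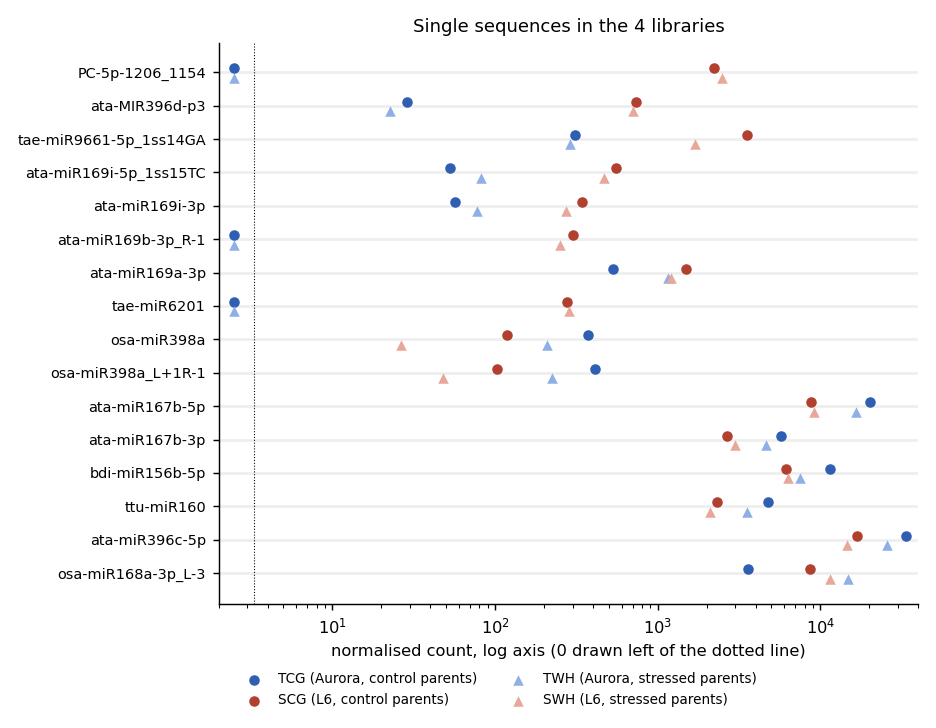
Normalised counts of 16 sequences in the 4 libraries on a log axis, with control-parent libraries as circles and stressed-parent libraries as triangles, blue for DBA Aurora and red for L6. For the first 8 sequences the SCG circle lies right of the TCG circle, for the next 7 it lies left of it, and for osa-miR168a-3p_L-3, the last one, the TWH triangle lies furthest right in its row.

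Both strands of miR9661, a miRNA known from wheat, were higher in L6. tae-miR9661-5p_1ss14GA had 312 in TCG, 3513 in SCG, 288 in TWH and 1689 in SWH. It was 11.3-fold higher (log2 3.49, 95% counting interval 3.33 to 3.66). The 3′ partner tae-MIR9661-p3 had 10.4 and 94.9, so that the 3′ share of both strands was 3.22% in TCG and 2.63% in SCG. The precursor lies between genes on chromosome 4A at 607648117 to 607648193, and the 5′ read differs from it by G14A, with the reference form not listed. Over the list of wheat miR9652 to miR9783, 6 of 146 sequences were higher (4.11%) and 15 lower (10.3%), and tae-miR9654b-3p_1ss19GA was among the lower ones with 1542 and 721.

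Of the 8 miR398 sequences 4 were lower in L6, from both arms, and 1 was higher. The 5′ strand mtr-miR398a-5p_1ss7AC had 2354 in TCG, 917 in SCG, 1516 in TWH and 471 in SWH (log2 -1.36, 95% counting interval -1.46 to -1.26). Among 3′ strands, osa-miR398a had 374, 118, 207 and 26.4 and osa-miR398a_L+1R-1 had 412, 102, 224 and 47.9. The 5′ strand bdi-miR398b_L-2R+2 had 311, 86.6, 197 and 34.8, and all 4 were also called lower in SWH vs TWH. The lower strands come from neighbouring regions on chromosome 5A, deposited as not forming a hairpin (468826184 to 468826360 and 468829083 to 468829206, minus strand) and from 5B (482030514 to 482030690, minus strand).

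In SCG vs TCG the other copper-linked miRNAs did not share this direction. The summed miR398 count was 3692 in TCG and 1486 in SCG, against 423 and 425 for miR397, which silences laccases. miR528, a grass miRNA of copper proteins, had 144 and 252. Its 3′ strand ata-miR528-3p_1ss4GC was called higher with 42.4 and 133, as was tae-miR398_L-1R+1 from a separate 3B precursor with 36.2 and 85.8. In all, 3 of the 16 copper-linked sequences were higher and 4 lower. In SWH vs TWH 0 of 15 were higher and 5 lower, among them the lower miR398 strands above. The sums in TWH and SWH were 397 and 349 for miR397 and 233 and 198 for miR528. For miR408, also copper-linked, they were 28.4 and 37.2.

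The miR167 family had 5 of 22 sequences lower and 1 higher, with a median log2 of -0.74. ata-miR167b-5p had 20089 in TCG, 8687 in SCG, 16604 in TWH and 9081 in SWH (log2 -1.21, 95% counting interval -1.24 to -1.18). ata-miR167b-3p had 5746, 2653, 4637 and 2990. Both strands were lower in both L6 libraries, and neither passed the fold criterion in SWH vs TWH (log2 -0.87 and -0.63). Another guide of the family, tae-miR167c-5p, had 11205 in TCG and 16027 in SCG and was not called.

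miR156 had 4 of 19 sequences lower and 1 higher. The most abundant, bdi-miR156b-5p, had 11362 in TCG and 6173 in SCG, a log2 of -0.88 under the fold criterion, and 7451 and 6328 in TWH and SWH. The 4 called forms differ from it in their last bases or by an added first base: gma-miR156a_R+1 had 180 and 85.8, aly-miR156a-5p_R+4 had 381 and 181, gma-miR156a_1ss20CT had 141 and 68.3, and gma-miR156a_L+1R+2 had 188 and 27.5. None of the 4 was called in SWH vs TWH (log2 -0.94 to -0.27).

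Other growth and hormone miRNAs gave few calls. ttu-miR160, which silences auxin response factors, had 4739 in TCG, 2304 in SCG, 3540 in TWH and 2089 in SWH and was called lower by a small margin (log2 -1.04). The miR165/166 group, which silences HD-ZIP III factors, had 2 of 20 sequences lower and 0 higher, and its summed count was 22558 in TCG and 13618 in SCG. One of them, csi-miR166c-3p_R+1, had 1062 and 370 and differs from its genomic region by C21A, and that region's own form, ata-miR166a-3p, had 16727 and 9983. For miR5200, which in Brachypodium silences a florigen gene, 0 of 4 were called and the sum went from 5260 to 3098, whereas it was 5140 in TWH and 5926 in SWH. miR319, which silences TCP factors, went the other way with 11993 and 17195 and 1 of 10 called higher.

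**Figure D3:**
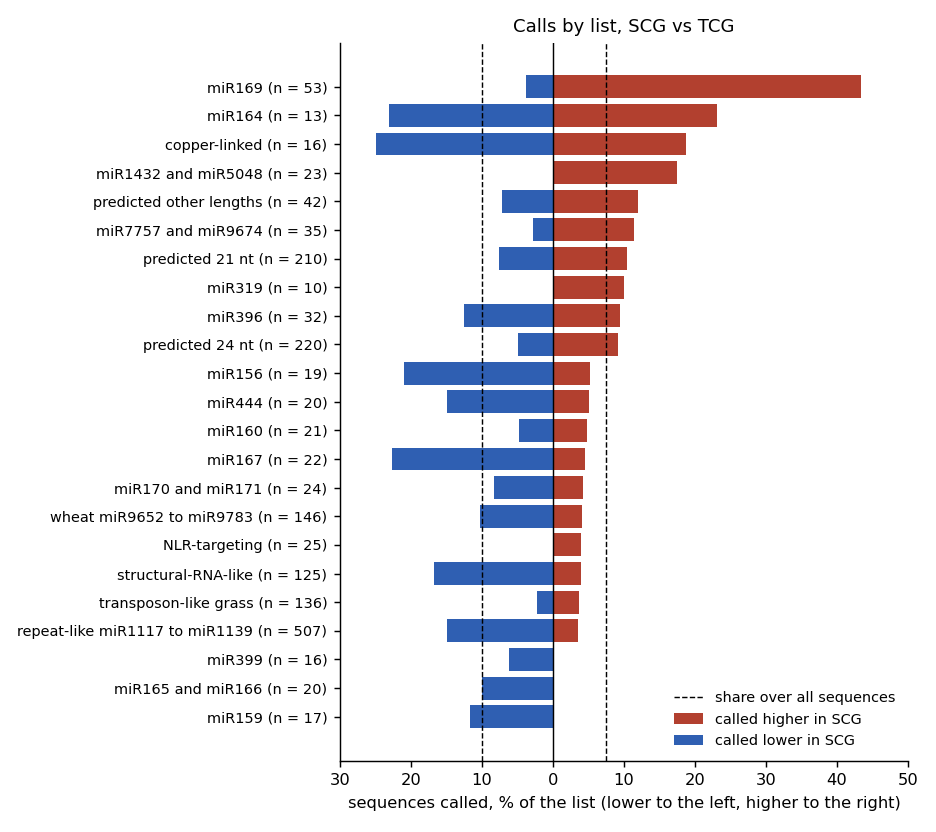
Share of the sequences of each list called higher (red, to the right) or lower (blue, to the left) in SCG, for the 23 lists with at least 10 sequences, with dashed lines at the shares over all sequences, 7.41% and 10%. The miR169 bar reaches 43.4% on the higher side, and the longest bars on the lower side are those of the copper-linked list, miR164, miR167 and miR156.

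The abundant wheat miRNAs miR7757, miR9674 and miR5048 gave few calls on their main strands. tae-miR9674b-5p had 76633 in TCG, 96955 in SCG, 90855 in TWH and 88281 in SWH and was not called. Its 3′ partner ata-miR9674a-3p_L-1R+1 had 9.32, 87.4, 6.63 and 86.3, which was 9.38-fold higher in SCG, and the genotypes did not overlap. tae-MIR5048-p3_1ss18TG had 4677 in TCG and 9898 in SCG but 7075 and 7963 in TWH and SWH. In all, 4 of 35 miR7757 and miR9674 sequences were higher and 1 lower, and 4 of 23 miR1432 and miR5048 sequences, resting on 3 read numbers, were higher and 0 lower.

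miR444, which silences MADS-box genes in grasses, had 3 of 20 sequences lower and 1 higher. tae-MIR444b-p3 had 135 in TCG, 33.3 in SCG, 98.4 in TWH and 70.7 in SWH. osa-miR444f_1ss12CT had 406, 190, 338 and 337, so the TWH and SWH values lay close together. Of 9 miR172 sequences, which silence AP2-type genes, 1 was lower and 0 higher, and the most abundant, ata-miR172b-3p, had 3444 and 2220 and was not called.

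The nutrient miRNAs gave few calls. Of 16 miR399 sequences, which silence a phosphate-signalling E2 enzyme, 1 was lower (osa-miR399d, 302 and 136). miR827, a phosphate-responsive miRNA, had a sum of 5105 in TCG and 7729 in SCG, with 1 of 5 sequences called each way. miR395, of the sulphate pathway, was rare, with a sum of 60.4 and 48.4. Among miRNAs that target immune receptor genes 1 of 25 was higher and 0 lower.

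Many calls of sequences that resemble repeats or structural RNA share a count, so they are set against the 7.62% higher and 8.28% lower of all 1823 read numbers. Of 507 sequences of the repeat-like families miR1117 to miR1139, 18 were higher and 76 lower, resting on 11 and 39 of 369 read numbers (2.98% and 10.6%), and in SWH vs TWH 13 were higher and 10 lower. miR1128 alone gave 54 of the 76. For the families whose sequences resemble structural RNA 5 of 125 were higher and 21 lower, which are 4 and 7 of 93 read numbers (4.30% and 7.53%), and the summed count was 5391 and 5447. The lowest fold change among sequences recorded in both libraries, that of gma-MIR6300-p5 (107 in TCG, 12.5 in SCG, 41.6 in TWH and 18.0 in SWH), is deposited for 6 sequences but is 1 read number.

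PC-named miRNAs were counted by length in both seed sources, and a difference between the sources was not tested. Of 210 such 21-nt sequences 22 were higher and 16 lower, and of 220 such 24-nt sequences 20 were higher and 11 lower. In SWH vs TWH the same lists gave 10 higher and 10 lower of 194 recorded at 21 nt. At 24 nt they gave 3 higher and 18 lower of 212 recorded. The shares over all sequences also moved, from 7.41% higher and 10% lower in SCG vs TCG to 6.30% and 5.09% in SWH vs TWH. A 21-nt example is PC-5p-726_2034, with 194 in TCG, 793 in SCG, 341 in TWH and 641 in SWH. It was 4.09-fold higher in SCG than in TCG and was not called in SWH vs TWH. Lower examples were PC-3p-4854_304, with 147, 30.8, 89.9 and 36.0, and PC-5p-4334_335, with 210, 88.3, 174 and 95.9.

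In most precursors with a called strand only 1 arm was called. The 140 precursors counted had both arms recorded in both libraries, which leaves out those with an arm at 0 in TCG or SCG. Regions deposited as not forming a hairpin were counted apart in the same way. Both strands were called higher in 4 (miR169h, miR169i, far-MIR169 and miR9661), both lower in 1 (miR167b), and in opposite directions in 0. The far-MIR169 3′ read differs from its own precursor by T8G, and that precursor's own form is ata-miR169i-3p. Reads of ata-miR169i-3p thus match the miR169i and far-MIR169 precursors alike. Only 1 strand was called in 28. How often unrelated sequences would be called together was not computed. Among 26 regions deposited as not forming a hairpin both strands were called lower in 1, the miR398 region of chromosome 5A with mtr-miR398a-5p_1ss7AC and osa-miR398a_L+1R-1, and both higher in 0. In the 116 precursors with a count of at least 20 on each arm, 58 had the same sign on both arms, with a Pearson r of 0.40 and a Spearman rho of 0.25 across precursors. These precursors share both libraries, and some share a strand.

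**Figure D4:**
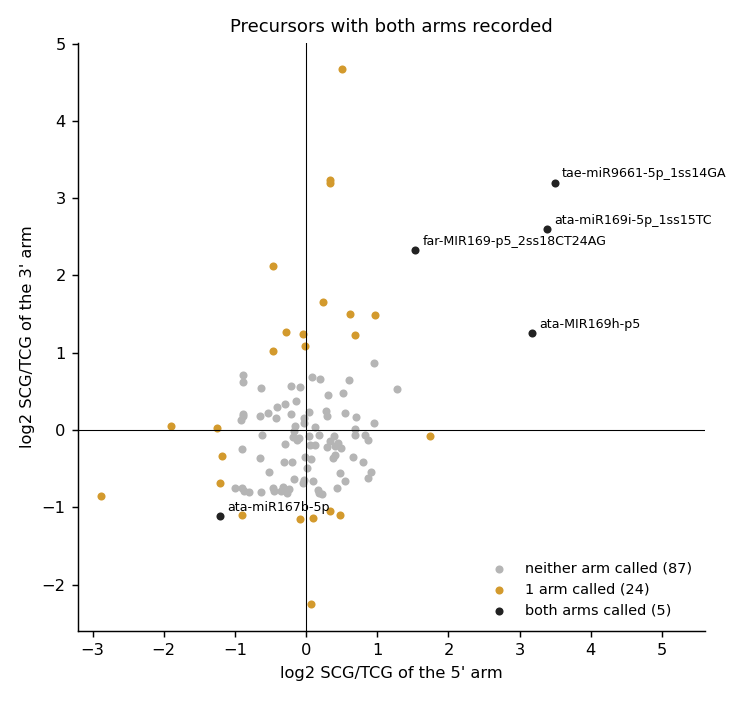
Log2 fold change SCG/TCG of the 5′ arm (x axis) and the 3′ arm (y axis) of the 116 hairpin-forming precursors with at least 20 normalised counts on each arm, coloured by the number of arms called. The 5 black points have both arms called, and the highest point on the y axis is the miR396d precursor, at 0.50 and 4.66.

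In 20 of the 28 precursors with 1 called strand it was the less abundant one. The share expected from abundance alone was not computed, and over all sequences the share of calls varied with abundance. Where the larger count was 10 to 100, 11.3% were higher and 13.6% lower, against 7.76% and 8.59% at 100 or more. Under 10 the shares were 0% and 4.23%. For miR168, which silences AGO1 of the miRNA pathway itself, osa-miR168a-5p had 13670 in TCG and 11231 in SCG, whereas osa-miR168a-3p_L-3 had 3571 and 8570. The 3′ share of both strands was thus 20.7% in TCG and 43.3% in SCG. TCG held the lowest value of the 4 libraries, since the 3′ strand had 14660 in TWH and 11431 in SWH, and in SWH vs TWH the log2 fold change was -0.36.

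Other precursors had an uncalled 5′ strand and a 3′ strand called higher in L6. For miR164, which silences NAC factors, ata-miR164b-5p had 8066 in TCG and 5861 in SCG, while its partners ata-miR164c-3p had 37.3 and 162 and tae-MIR164-p3 had 419 and 848. For miR528 the 3′ share was 29.5% and 52.8%, and for miR530, tae-miR530 had 5.18 and 47.5 beside 698 and 877 of its 5′ arm. A 3′ strand called lower was seen for tae-MIR7757-p3_1ss19AG, with 6524 and 3162 beside 98954 and 124711 of the 5′ strand tae-miR7757-5p_1ss2TC, and for ata-miR396e-3p, with 737 and 345. The calls of tae-MIR7757-p3_1ss19AG, ttu-miR160 and gma-miR156a_1ss20CT missed the fold criterion when scaled by TMM factors or by clean reads, and that of tae-MIR164-p3 missed it when scaled by total miRNA reads (log2 0.95).

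The 3′ end of the sequences differed between the libraries across families, in a comparison chosen after the values had been seen and given without a test. Of 60 sequences that end in CCA, 0 were higher and 17 lower (28.3% beside 10%), with a median log2 of -0.49. Of 103 that end in ACC, 22 were higher and 1 lower (21.4% beside 7.41%), with a median of 0.52. Among the 39 endings of 3 bases held by at least 20 sequences, CCA had the highest share of lower calls, and ACC the highest share of higher calls and the highest median. Without the miR169 members 15 of 94 ending in ACC were higher. In SWH vs TWH, where 6.30% of all sequences were higher and 5.09% lower, 4 of 57 ending in CCA were higher and 8 lower, and 6 of 103 ending in ACC were higher and 2 lower, so the ACC share of higher calls was near the background there. Without miR169 it was 3 of 94, and of the 32 PC-named 24-nt sequences ending in ACC, 9 were higher in SCG vs TCG but 0 were higher and 1 lower in SWH vs TWH.

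Some sequences, ending in CCA or otherwise in CA, equal another recorded sequence with added bases. In 19 pairs 1 recorded sequence equals another plus CA, CCA or ACCA at its 3′ end. The longer form had a count of at least 20. Not every longer form is a guide with an added tail, since osa-miR5071_1ss15GA had 1982 in TCG beside 14.5 of its shorter form. These pairs thus differ from the set of CCA endings above. In 16 of the 19 the longer form had the lower log2 fold change, the median difference being -0.72, and 10 longer forms were called lower beside 2 of the shorter ones. In SWH vs TWH it was also 16 of 19, with a median of -1.04, though some pairs share a shorter form. Examples with the seed in capitals are printed to show the added ends.
osa-miR167d-5p_R+4: tGAAGCTGccagcatgatctgacca
mdm-miR396c_R+2: tTCCACAGctttcttgaacttca
rco-miR171c_R+4: tGATTGAGccgtgccaatatcacca
ata-miR396a-5p_R+4: tCCACAGGctttcttgaactgacca

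osa-miR167d-5p_R+4, which is ata-miR167b-5p plus CCA, had 85.9 in TCG, 11.7 in SCG, 83.3 in TWH and 13.2 in SWH. That was 0.428%, 0.134%, 0.502% and 0.145% of the shorter form. mdm-miR396c_R+2 was 0.247%, 0.0646%, 0.210% and 0.0414% of ata-miR396c-5p, and rco-miR171c_R+4 was 2.78%, 1.51%, 4.45% and 2.16% of bdi-miR171b. For ata-miR396a-5p_R+4 the values were 0.699%, 0.442%, 0.868% and 0.492% of osa-miR396e-5p, which itself differed by a log2 of only 0.16. In these 4 pairs, picked as examples after the values had been seen, both L6 libraries lay below both DBA Aurora libraries. Over all 19 pairs such non-overlap was not counted, and the longer form had the lower fold change in 16 in each seed source. Forms with added T had no common direction, since in 10 of 28 pairs the longer form had the lower fold change.

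**Figure D5:**
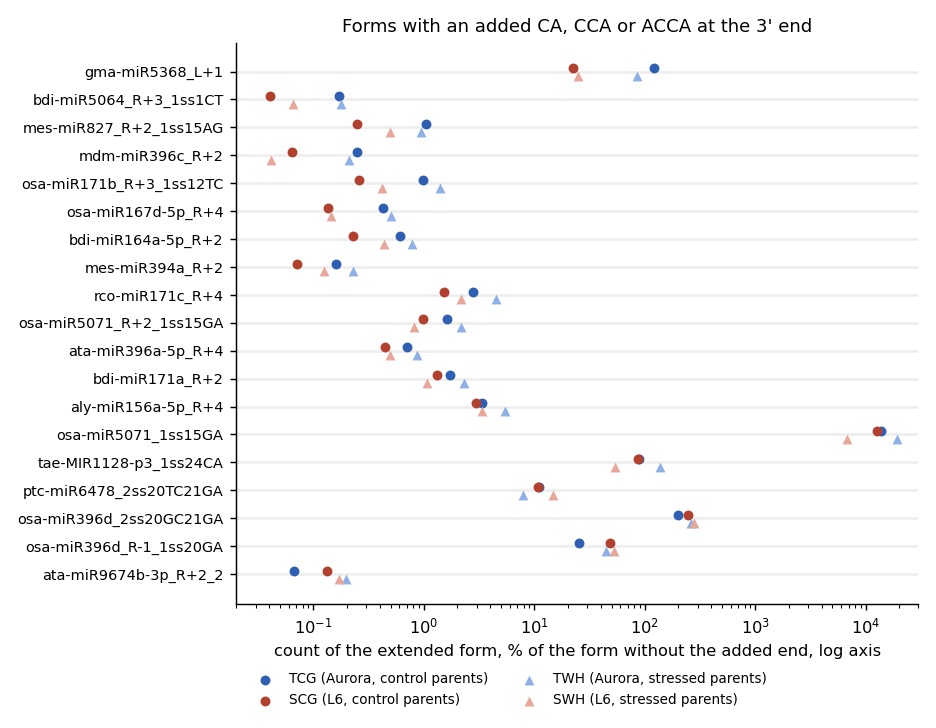
Count of each form with an added CA, CCA or ACCA as a percentage of the form without it, on a log axis, in the 4 libraries, for the 19 pairs in order of the SCG against TCG difference. The red points lie left of the blue ones in most of the upper rows, and the last 3 rows show the pairs in which SCG was not below TCG.

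Opposite calls of sequences that differ at 1 base came to 1 pair of low counts, and no expected share was computed. Of 593 pairs of sequences of equal length that differ at 1 base, 1 pair was called in opposite directions, tae-MIR1128-p3_1ss21GA (0 in TCG, 14.99 in SCG) and tae-MIR1128-p3_12 (27.9 and 12.5), which differ by G21A. By length, 14.4% of the 97 sequences of 19 nt were higher, the highest share of the lengths, and 36 of 672 sequences of 24 nt were higher and 73 lower. By subgenome, 6.60% of 849 sequences placed on A chromosomes were higher and 11.1% lower, against 7.91% and 9.04% of 1151 on B chromosomes. Precursors that overlap an annotated gene gave 6.97% higher and 9.39% lower, and those between genes 7.43% and 10%. The shares by length, subgenome and gene overlap count sequences, so a shared read number enters again for each of its sequences.

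The same genotypes in the other seed source gave 125 sequences higher in L6 (6.30% of 1985) and 101 lower (5.09%). Of the 151 higher in SCG, 39 were called higher in SWH vs TWH, which is 25.8% of the first list and 31.2% of the second. Of the 204 lower ones 41 were called lower, 20.1% and 40.6%. Opposite calls numbered 2 and 1.

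Among abundant DEMs most had the same sign in SWH vs TWH. A same-direction call needs the same sign, so the called ones are part of these. The same-sign share over all abundant sequences was not computed. With a count of at least 100 in TCG or SCG, 26 of the 28 higher sequences had the same sign in SWH vs TWH and 12 were called, and 30 of the 31 lower ones had the same sign and 14 were called. Since 6 of these 31 are gma-MIR6300-p5 sequences with 1 count, the lower ones by read number are 25 of 26 with the same sign and 9 called. The exceptions in sign were osa-miR168a-3p_L-3, tae-MIR164-p3 and PC-5p-3888_369. The median log2 went from 1.68 in SCG vs TCG to 0.73 in SWH vs TWH for the higher ones, and from -1.29 to -0.87 for the lower ones. These sequences were chosen by their SCG vs TCG values, so a smaller value in SWH vs TWH carries no statement on parent treatment.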

How the data were processed

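Small RNA was sequenced from 4 pooled libraries of durum wheat seedling shoots, 1 per group, and TCG and SCG were compared. Per the study's methods, the authors trimmed adapters, filtered on quality and length, discarded matches to mRNA, RFam and Repbase, and matched the rest to miRBase and the Svevo.v1 genome using ACGT101-miR, its version being not given in the sources used here. Deposited estimated counts are read numbers that the authors partly divided among entries. The deposited signal values, called normalised counts here, are those numbers times 1 factor per library. The deposited folding score (free energy of each hairpin, in kcal/mol) was not used in any comparison. Of the table's lines, 28 were empty and were not analysed here.

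Entries were merged to 1 row per distinct sequence, and entries of 1 sequence with identical values were taken once. The chi-squared and Fisher's exact tests (the latter two-sided) of normalised counts follow the study's methods and were run with SciPy 1.17.1. Setting each sequence against the sum of all others and the Benjamini-Hochberg adjustment over all 2039 sequences were chosen here. The 95% counting intervals cover counting error only, and PCR reads are not independent molecules. The genotype term was fitted with edgeR 4.0.16 (quasi-likelihood test, TMM factors, rounded read numbers, parent treatment as a term, mean normalised count of at least 10), with DESeq2 1.42.0 and limma 3.58.1 (pseudocount 1) as alternatives. The code was tested on simulated data.

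The named sequences were the 10 highest and 10 lowest log2 fold changes among DEMs with both values recorded and a count of at least 100, the 3 most abundant DEMs of 1 library per side, the 5 most abundant sequences, the most abundant and the most changed DEM of each list, pairs that differ at 1 base and were called in opposite directions, and the 5 lowest p-values of the genotype term. Further sequences were named after their values were seen, namely partner strands, other members of a described family, and the forms with added ends. The members and lists were chosen with earlier results of these data known. Chromosome names were given to the reference accessions in the order in which its 14 chromosome sequences are listed.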

Additional observations from a re-analysis of the deposited data

Results flagged for a closer look

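In 3 sequences the libraries of the genotypes were called in opposite directions in the control-parent and the stressed-parent pair, and the difference between the pairs was not tested. osa-miR5072_L-3 had 15.5 in TCG and 0 in SCG (log2 -1.90, a bound) but 0 in TWH and 12.0 in SWH (log2 1.34, a bound). PC-5p-14884_120 had 24.8 in TCG and 50.0 in SCG (log2 1.01) but 40.7 in TWH and 13.2 in SWH (log2 -1.63), and its control-parent call missed the fold criterion when scaled by total miRNA reads. PC-5p-24390_80 had 6.21 in TCG and 35.8 in SCG (log2 2.53) but 39.8 in TWH and 18.0 in SWH (log2 -1.14). None of the 3 had a count above 50 in any library.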

How the results depend on the processing

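The SCG vs TCG calls, 151 higher and 204 lower, became 292 and 324 when a 0 met the fold criterion at an unadjusted p, 322 and 397 without a fold criterion, and 28 and 31 with a count of at least 100. A negative binomial exact test gave 104 and 106. Other tests, scalings and filters stayed within 1.5 times, among them 1 row per read number (141 and 151), which was chosen after seeing the data. Scaling moved all log2 values by -0.07 (total miRNA reads), 0.05 (TMM) or 0.08 (clean reads). Of the 59 DEMs with a count of at least 100, scaling by TMM factors ended 3 calls (tae-MIR7757-p3_1ss19AG, ttu-miR160 and gma-miR156a_1ss20CT), clean reads ended these and 3 more (aly-miR156a-5p_R+4, gma-miR156a_R+1 and sbi-miR396c_R+1), and total miRNA reads ended 2 (tae-MIR164-p3 and PC-5p-3176_439). The SWH vs TWH counts stayed within 1.5 times under every alternative run.

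For the genotype term, edgeR's 1 higher and 0 lower became 2 and 0 with DESeq2 size factors, 65 and 73 without a filter, 17 and 6 without the treatment term, and 18 and 11 with 1 row per read number. DESeq2, with no adjusted p for 707 of the 1258 sequences, gave 17 and 18, and limma 8 and 3. Leaving out 1 library, with the treatment term dropped as well, gave 17 to 59 higher and 5 to 43 lower, with 24 and 9 without TCG, 59 and 43 without TWH, 19 and 20 without SCG, and 17 and 5 without SWH. The lone library of a genotype was then assumed to vary like the others, and the part of the library and of the dropped term in these shifts was not tested. No paired analysis was possible because each group has 1 library and the labels give no replicate numbers. Depth limits sequences near 5 reads, where a 0 and a recorded value cannot be told apart with confidence.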
